A study of Drosophila melanogaster with 31 samples.

Results

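The pericentric heterochromatin of chromosome arms 2L, 3L and 3R was examined in 12 lists of accessible regions from Drosophila melanogaster embryos. Peaks of the assay for transposase-accessible chromatin (ATAC-seq) were assigned to it by the position of their summit on dm6, beyond 22000000 on 2L, beyond 22900000 on 3L or below 4200000 on 3R, and overlapping peaks of a list were merged. The 3 windows covered 10.92 Mb, against 72.78 Mb for the rest of the same arms. Across the lists they held between 1131 and 4687 merged peaks, 36134 of 510630 in all, and overlapping peaks of different lists made 7061 separate regions. No measured value was used to choose them.

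The study asked whether Grainy head (Grh), a transcription factor, shapes accessibility in the embryo. In grhM- embryos the mother's germline carried only the null allele grhB37, made by heat-shock FLP/FRT mitotic clones, and grhM+ siblings kept maternal grh. In grhB37/B37 embryos both zygotic copies were null, with grhB37/+ siblings as controls. In grhM-Z- embryos both sources were missing, and the matched controls, called grhM+Z+ here, had maternal grh but were themselves grhB37/+. Stage 5 (cellularization) and stage 6 (the start of gastrulation) were assayed in single embryos, and embryos of the zygotic experiment at 11-12 h after egg laying were pooled in bulk. The authors deposited 1 list per group. In the grhM-Z- and grhM+Z+ lists each row carries the code of a single embryo and rows of different embryos overlap, so these lists join the calls of single embryos, while the other 8 lists name no embryo. A list is 1 value for its group, and p-values over lists measure only the spread between lists.

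Pericentric heterochromatin surrounds the centromeres and is rich in transposons and tandem repeats. In flies it is packed late in early development, as histone H3 lysine 9 methylation and Heterochromatin Protein 1 accumulate around the time of zygotic genome activation. A small set of essential genes nevertheless resides in it, among them light (lt), concertina (cta) and several ribosomal protein genes, and some of these are known to depend on their heterochromatic surroundings for normal expression.

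The reference sequence of the windows differed from that of the rest of the arms. Only 45.7% of pericentric bases started a 50-mer found once in the genome, against 95.7% in the rest, and annotated transposons covered 14.6% against 3.79%. The windows held 93 protein-coding genes, 37 on 2L, 42 on 3L and 14 on 3R, which is 8.51 per Mb against 120 per Mb in the rest. Start sites of any annotated gene lay within 1000 bp of 2.94% of pericentric bases, against 26.8% of the other bases.

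The sequences printed here show the kinds of region that carried the results, each read 5′ to 3′ from the dm6 reference (RefSeq assembly, plus strand unless stated). The first is the intergenic region in unique sequence with the best mean rank of those found in all 12 lists, chr3R:3789721-3789821. The next is the summit at the CG12581 start site, chr3R:4174398-4174498, whose capitals are the reverse complement of CAGGTAG, the string bound by the genome activator Zelda (Zld). The remaining pair are the summits upstream of the start sites of CG40045, chr3L:24028389-24028489, and of scarecrow (scro), chr3L:24723849-24723949, where none of the strings searched was present. All 4 lie between annotated genes.
3R intergenic: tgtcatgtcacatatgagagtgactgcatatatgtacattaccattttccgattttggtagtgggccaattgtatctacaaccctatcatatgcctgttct
CG12581 start site: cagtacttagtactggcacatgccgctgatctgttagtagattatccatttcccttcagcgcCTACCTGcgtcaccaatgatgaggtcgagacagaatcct
CG40045 start site: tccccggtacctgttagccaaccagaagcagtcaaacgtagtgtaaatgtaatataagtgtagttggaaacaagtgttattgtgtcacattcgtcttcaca
scro start site: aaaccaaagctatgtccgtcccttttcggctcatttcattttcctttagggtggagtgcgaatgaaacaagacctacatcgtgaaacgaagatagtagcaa

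A second kind of region lay in repeats. The next 4 summits, all on 3L, shared an exact run of 41 bases, shown in capitals. It occurred 22 times in the 3L window and at no position in the rest of 2L, 3L and 3R. They lie at chr3L:26937071-26937171, chr3L:26878420-26878520, chr3L:27008010-27008110 and, read on the minus strand, chr3L:24611829-24611929. All 4 were intergenic. The regions at 24.61, 26.88 and 26.94 Mb were in both 11-12 h lists and no early list. The region around the 27.01 Mb summit, 2085 bp long, had peaks in 11 of the 12 lists, not all of which held the run.
3L 26.94 Mb: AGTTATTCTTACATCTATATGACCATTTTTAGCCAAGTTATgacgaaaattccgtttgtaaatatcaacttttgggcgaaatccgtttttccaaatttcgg
3L 26.88 Mb: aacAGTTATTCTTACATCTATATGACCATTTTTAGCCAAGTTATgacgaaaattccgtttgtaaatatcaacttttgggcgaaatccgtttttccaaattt
3L 27.01 Mb: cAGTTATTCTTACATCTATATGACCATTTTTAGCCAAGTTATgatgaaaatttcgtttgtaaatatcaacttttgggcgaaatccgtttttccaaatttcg
3L 24.61 Mb: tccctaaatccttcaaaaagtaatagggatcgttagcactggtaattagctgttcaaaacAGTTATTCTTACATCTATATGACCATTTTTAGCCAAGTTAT

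A further region was a simple tandem repeat. The strongest region of the 2L window away from a start site, at the proximal end of the assembled arm (chr2L:23513241-23513341), repeated with a period of 7 bp.
2L arm end: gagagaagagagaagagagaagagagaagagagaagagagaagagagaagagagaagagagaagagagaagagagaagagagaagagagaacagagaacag

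How densely was pericentric chromatin populated with accessible regions? At stage 5 the windows had about as many peaks per Mb as the rest of the arms in 3 of 4 lists and more in the other, at stage 6 they had fewer, and few early pericentric peaks were strong. At stage 5 the density ratio, peaks per Mb in the windows over peaks per Mb in the rest, was 0.987 in the grhM- list, 1.28 in the grhM+ list, 1.04 in the grhM-Z- list and 0.976 in the grhM+Z+ list. The grhM+ list stood above the other 3, which sat close to 1. At stage 6 the 6 ratios ran between 0.679 and 0.872 with a median of 0.798, and at 11-12 h they were 1.51 in the grhB37/B37 list and 0.905 in the grhB37/+ list. Exact 95% binomial intervals, which cover counting error only, were 1.41 to 1.61 and 0.856 to 0.956 at 11-12 h. Averaged over the 12 lists the log2 ratio was -0.11, and an exact sign-flip test over lists did not separate it from 0 (p = 0.267, adjusted p = 0.285 over the 16 tests of the report).

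The value changed with the denominator and with the strength of the peaks. Per base that starts a unique 50-mer, every list had more peaks in the windows than outside, with ratios between 1.42 and 3.15 (mean log2 ratio 0.96, exact sign-flip p = 0.000488, the smallest that 12 lists allow). Peaks in repeated sequence still counted there. When only peaks with at least 90% unique 50-mers were counted per unique base, the mean log2 ratio was 0.0938 and did not pass the test (exact sign-flip p = 0.625). Among the 5000 strongest merged peaks of each list, by contrast, the 10 early lists had ratios between 0.20 and 0.63. The mean log2 ratio over 12 lists was then -1.63 (exact sign-flip p = 0.000977). The grhB37/B37 list at 11-12 h was the exception, with a ratio of 1.34, against 0.490 in its grhB37/+ control.

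**Figure D1:**
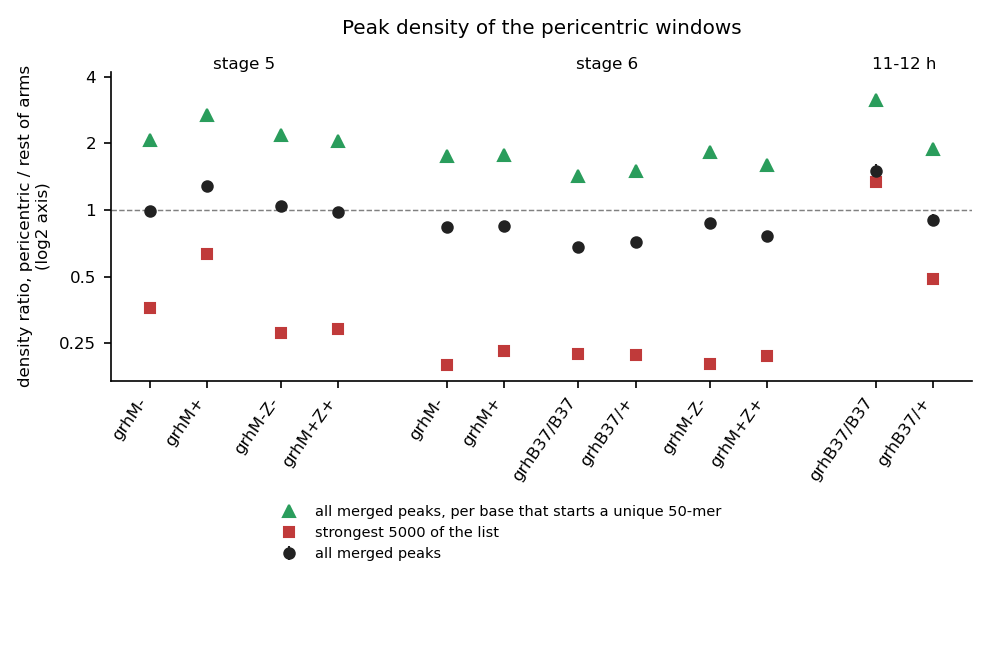
Density ratio of merged peaks, pericentric windows over the rest of 2L, 3L and 3R, on a log2 axis, for each of the 12 lists (mutant left of its control). Black circles are all merged peaks with exact 95% counting intervals, mostly hidden by the symbol, green triangles the same counts per base that starts a unique 50-mer, and red squares the 5000 strongest peaks, which lie between 0.20 and 0.63 in the early lists.

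Strong peaks thinned out from the window border inwards, while the density of peaks of any strength changed little there. In the 0.5 Mb outside the border the stage 6 lists had medians of 44 strong peaks per Mb on 2L, 44 on 3L and 52 on 3R. In the first 0.5 Mb inside they were 30, 30 and 15 per Mb on the same arms, and in the next 0.5 Mb 14, 7 and 4. For peaks of any strength the first bin inside had 346 per Mb on 2L, 389 on 3L and 361 on 3R, against 366, 345 and 382 in the bin outside. Unique 50-mers made up 70.4%, 74.7% and 56.2% of the first bin inside on 2L, 3L and 3R, against 81.5%, 90.7% and 91.6% of the bin outside, and 15.9% of the last bin of 3R.

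**Figure D2:**
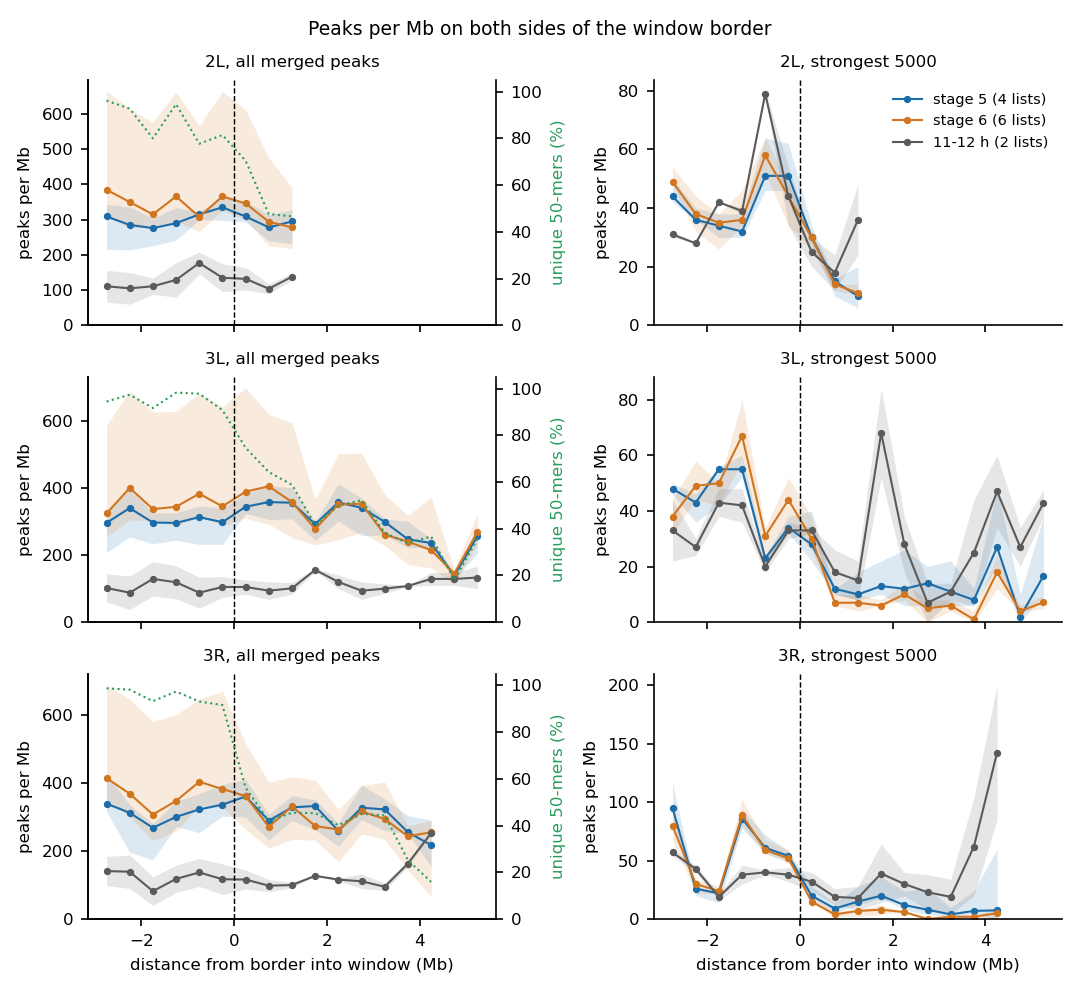
Merged peaks per Mb in 0.5 Mb bins against the distance from the window border into the window (negative values lie outside), for all merged peaks (left column, with the share of unique 50-mers as a dotted green line on the right axis) and for the 5000 strongest (right column). Lines are medians over the lists of a stage and bands run from the lowest to the highest list; strong peaks of stage 5 and stage 6 thin out just inside the border on each arm, and those of 11-12 h are high in the last bin of the 3R window (85.0 and 200.0 per Mb).

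Most pericentric peaks were away from annotated start sites. Between 3.80% and 7.60% of them had their summit within 1000 bp of an annotated start site, against 34.4% to 54.6% of peaks in the rest. The difference averaged -33.7 percentage points (exact sign-flip p = 0.000488, adjusted p = 0.00156) and had this sign in 12 of 12 lists. As given above, 2.94% of pericentric bases and 26.8% of the other bases lay within that distance of a start site. Among the strongest 5000 the start-site share of pericentric peaks was 13.2% to 38.4% at stage 5, 47.3% to 60.4% at stage 6, and 5.26% in the grhB37/B37 list and 21.2% in the grhB37/+ list at 11-12 h. In the rest of the arms it was 70.2% to 78.9% at stage 5 and 73.9% to 75.8% at stage 6. At 11-12 h it was 67.2% there in the grhB37/B37 list and 75.2% in the grhB37/+ list.

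Pericentric peaks were divided into 3 classes, defined after the values had been seen: start-site peaks, distal peaks in unique sequence (at least 90% of bases start a unique 50-mer) and distal peaks in repeated sequence. In the early lists, distal peaks in unique sequence were the largest class, 1533 to 3522 per list, followed by 802 to 1244 in repeated sequence and 171 to 356 at start sites. At 11-12 h the repeated class held 964 of 1131 pericentric peaks in the grhB37/B37 list and 1181 of 1466 in the grhB37/+ list. The 11-12 h libraries were single-end and not selected for fragment length, unlike the paired-end early libraries, so assay and age cannot be told apart. In the rest of the arms 99.2% to 99.7% of early peaks and 89.3% and 93.4% of the peaks at 11-12 h lay in unique sequence.

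**Figure D3:**
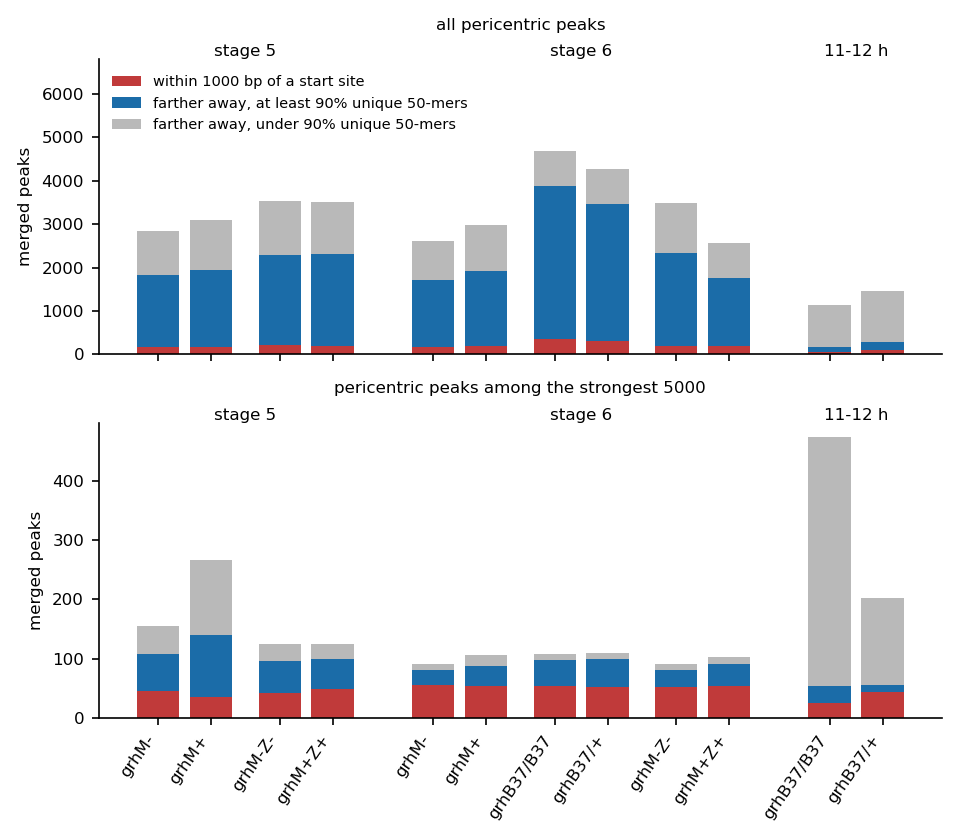
Number of pericentric merged peaks per list (mutant left of its control) by class: start-site peaks (red), distal peaks in unique sequence (blue) and distal peaks in repeated sequence (grey), for all peaks (top) and for those among the 5000 strongest (bottom). Start-site peaks make up 52 to 55 of the 91 to 110 strong peaks at stage 6, and repeated sequence 421 of 475 in the grhB37/B37 list at 11-12 h.

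An annotated transposon covered the summit of 8.69% to 9.72% of pericentric peaks in the early lists, against 0.370% to 0.622% of the other peaks. At 11-12 h the pericentric share was 16.5% in the grhB37/B37 list and 19.4% in the grhB37/+ list, against 7.35% and 5.02% in the rest of the arms of the same lists. The leading families of the early lists differed from those of the 11-12 h lists, where assay and age cannot be told apart. In the early lists the DNA transposons INE-1 (23 to 58 peaks) and 1360 (22 to 40 peaks) and the retrotransposon gypsy8 (14 to 35 peaks) came first. At 11-12 h the LINE-type element F led, with 24 peaks in the grhB37/B37 list and 30 in the grhB37/+ list. The leading family changed in the rest of the arms too. There INE-1 came first in every early list, with 10 to 51 peaks. At 11-12 h the first were F (35 peaks) in the grhB37/B37 list and the element 297 (57 peaks) in the grhB37/+ list. INE-1 and 1360 were also the families with most annotated copies in the windows, 276 and 141, whereas gypsy8 had 27.

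Pericentric peaks ranked lower by significance than other peaks of their list in 11 of 12 lists. The exception was the grhM+ list at stage 5, with a median percentile of 47.2, against 50.9 in the rest. Expressed as a percentile in which 0 is the strongest and 100 the weakest peak, their median was 47.2 to 53.7 at stage 5, 55.7 to 67.6 at stage 6, and 54.6 and 63.2 in the grhB37/B37 and grhB37/+ lists at 11-12 h. The rest of the arms had medians of 47.5 to 50.9 in all 12 lists. The mean difference was 9.09 points (exact sign-flip p = 0.00195, adjusted p = 0.00446). Ranked by fold enrichment over the local background instead, the difference had the other sign, -9.61 points (exact sign-flip p = 0.0327), and among distal peaks alone it was 0.25 points (exact sign-flip p = 0.917).

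The local background was also lower in the windows of early embryos. For each summit, the caller's expected count and the observed fragments were worked back from the deposited fold enrichment and p-value. At stage 5 the median background under pericentric peaks was 1.97, 2.17, 0.719 and 0.721 fragments in the grhM-, grhM+, grhM-Z- and grhM+Z+ lists, against 7.14, 7.92, 2.96 and 3.01 in the rest. The values of the grhM-Z- and grhM+Z+ lists are per embryo. At stage 6 the pericentric medians were 0.393 to 3.36, against 3.25 to 15.9 in the rest. Fragments at the summit were likewise fewer, 5 to 19 at both early stages against 14 to 51, while the fold enrichment was 3.66 to 4.42 against 2.92 to 4.06. Early pericentric peaks thus rested on fewer fragments, and within most early lists their median enrichment was higher than in the rest. The exceptions were 2 stage 6 lists, grhM-Z- with 3.72 against 3.78 and grhM+Z+ with 3.66 against 4.06. The part of the background in the ranks of pericentric peaks was not tested.

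The gap was absent or small at 11-12 h. The background was 16.6 fragments in pericentric peaks against 16.0 in the rest in the grhB37/B37 list, and 13.4 against 15.7 in the grhB37/+ list. Over the 12 lists the mean log2 ratio of the medians was -2.04 (exact sign-flip p = 0.000977, adjusted p = 0.0026), with 11 of 12 lists below 0.

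The stage comparison asked how pericentric chromatin changed as gastrulation began. A smaller share of a list's peaks lay in the windows at stage 6 than at stage 5, and the lists did not overlap. The number of pericentric peaks per Mb itself overlapped between the stages, with medians of 296 at stage 6 and 301 at stage 5. In the rest of the arms the medians were 343 and 288. The stage 6 medians include the grhB37/B37 and grhB37/+ lists, which have no stage 5 partner and held 429 and 391 pericentric peaks per Mb. Within each genotype with both stages the pericentric number was lower at stage 6. It was 238 against 260 in grhM-, 273 against 283 in grhM+, 318 against 324 in grhM-Z- and 234 against 320 in grhM+Z+. The rest rose in these genotypes except grhM+Z+, with 308 against 328. The stage 6 density ratios reached at most 0.872, against at least 0.976 at stage 5. The difference of the mean log2 ratios was -0.44 (exact permutation over 10 lists, p = 0.00476, the smallest 210 arrangements allow, adjusted p = 0.00889). Within genotypes the ratio was lower at stage 6 in 4 of 4 pairs, 0.835 against 0.987 in grhM-, 0.850 against 1.28 in grhM+, 0.872 against 1.04 in grhM-Z- and 0.760 against 0.976 in grhM+Z+. With 4 pairs an exact sign-flip test cannot go below p = 0.125, which is the value it gave.

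Single grhM-Z- and grhM+Z+ embryos could be separated by the code in their rows. The density ratio was 0.676, 0.611 and 0.757 in grhM-Z- embryos and 0.675 and 0.582 in grhM+Z+ embryos at stage 6, against 0.881, 1.06 and 1.06 in grhM-Z- embryos and 0.868, 0.955 and 0.893 in grhM+Z+ embryos at stage 5. No stage 6 embryo reached the lowest stage 5 embryo. The difference of the mean log2 ratios within genotypes was -0.54 (exact permutation within genotypes over 11 embryos, p = 0.005, the smallest 200 arrangements allow, adjusted p = 0.00889).

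The background under pericentric peaks, relative to the rest, was also lower at stage 6, a comparison added after seeing the data. Its ratio was 0.121 to 0.213 at stage 6 and 0.239 to 0.275 at stage 5, a difference of -0.78 in mean log2 ratio (exact permutation over 10 lists, p = 0.00952, adjusted p = 0.0139). Distal peaks in unique sequence gave 0.201 to 0.278 at stage 6 and 0.396 to 0.478 at stage 5, with no overlap. For start-site peaks the ratio was 0.615 to 0.693 at stage 6 and 0.574 to 0.710 at stage 5, and the difference of -0.01 did not pass the test (exact permutation p = 0.843). In single embryos the ratio was 0.101 to 0.137 at stage 6 and 0.205 to 0.226 at stage 5.

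**Figure D4:**
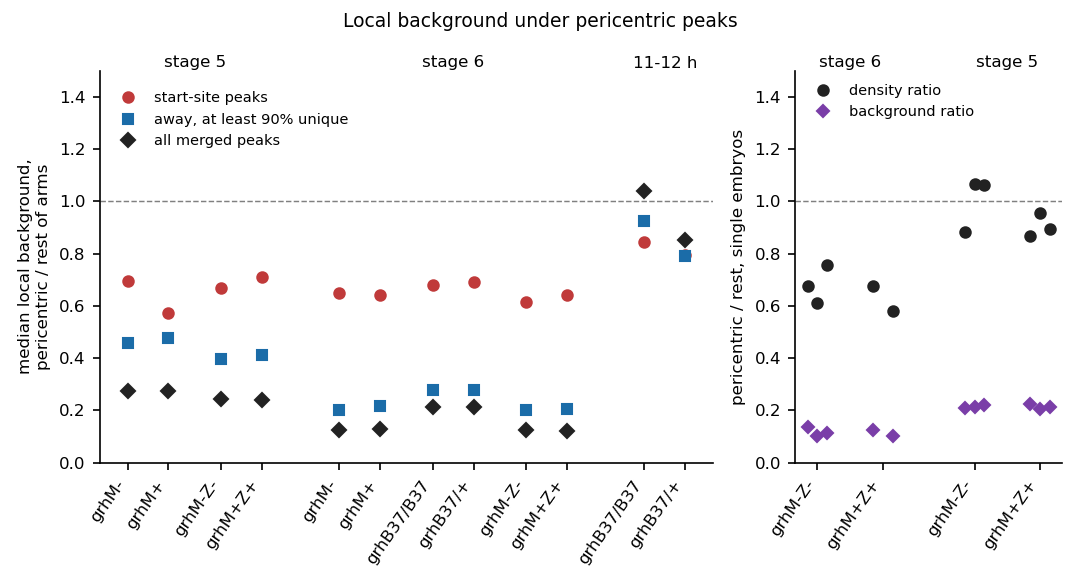
Median local background under pericentric peaks divided by that in the rest of the arms. Left, all lists (mutant left of its control) for start-site peaks (red circles), distal peaks in unique sequence (blue squares) and all merged peaks (black diamonds), the last at 0.121 to 0.213 at stage 6 and 1.04 and 0.853 at 11-12 h. Right, single grhM-Z- and grhM+Z+ embryos with stage 6 left of stage 5, showing the density ratio (black circles) and the background ratio (purple diamonds), in both of which no stage 6 embryo reaches a stage 5 embryo.

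Other properties of pericentric peaks moved less clearly. Their median percentile was 10.4 points higher, and so weaker, at stage 6 (exact permutation over 10 lists, p = 0.00952, adjusted p = 0.0139). By fold enrichment the shift was 5.36 points (exact permutation p = 0.424). The start-site share of pericentric peaks was 5.67% to 7.60% at stage 6 and 5.54% to 6.13% at stage 5, a difference of 1.07 points (exact permutation p = 0.0333, adjusted p = 0.0444) that at 250 bp was 0.36 points (exact permutation p = 0.0667). Among the strongest 5000 the difference was 24.3 points (exact permutation p = 0.00476). There the start-site peaks numbered 52 to 55 at stage 6 and 35 to 48 at stage 5, and the distal peaks 36 to 58 at stage 6 and 77 to 231 at stage 5.

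Strong pericentric peaks of stage 5 lacked a counterpart among the 15000 strongest peaks of stage 6 more often than strong peaks as a whole did. Each of a list's 5000 strongest peaks was called unmatched when none of the 15000 strongest of the other list overlapped it by at least 1 bp, a rule under which a weaker counterpart is counted as missing. Of the pericentric stage 5 peaks, 43 of 155 were unmatched in grhM- embryos, 118 of 266 in grhM+, 36 of 124 in grhM-Z- and 22 of 125 in grhM+Z+, which is 17.6% to 44.4%. The background over all 5000 peaks was 5.56%, 10.6%, 4.36% and 2.86% in the same order. In the other direction 2 of 91, 14 of 106, 3 of 91 and 4 of 102 pericentric stage 6 peaks had no stage 5 counterpart, where the background was 3.48%, 10.3%, 4% and 3.66%. In this direction the pericentric shares, 2.20% to 13.2%, lay near the background. Over both directions 242 pericentric peaks were unmatched, and when all peaks of the other list were searched 62 were.

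Regions particular to a stage were counted over whole lists for the windows only, so no share of the rest stands beside these counts. Of the 7061 regions, 103 were in all 12 lists and 750 in all 10 early lists, while 2232 were in 1 list only. In all 6 stage 6 lists and no stage 5 list there were 22 regions, 18 of them distal in unique sequence, and their best rank in any list was 4667. In all 4 stage 5 lists and no stage 6 list there were 11, the strongest of which lay in an intron of CG40470 at chr3L:23844093-23844419 with ranks of 13111, 6824, 3519 and 5029 in the grhM-, grhM+, grhM-Z- and grhM+Z+ lists.

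Most strong pericentric peaks of 11-12 h had no counterpart at stage 6. In the grhB37/B37 lists 435 of 475 strong peaks at 11-12 h had no stage 6 counterpart (background 51.9%), and in the grhB37/+ lists 142 of 203 (background 34.5%). The grhB37/B37 list at 11-12 h held 10509 merged peaks, so all of them were searched. Of the stage 6 peaks, 71 of 107 had no counterpart at 11-12 h in grhB37/B37 embryos (background 54.8%) and 46 of 110 in grhB37/+ embryos (background 27.5%). Only the windows were counted for regions in both 11-12 h lists and no early list. There were 348 such regions, of which 345 were distal in repeated sequence. The median share of their bases that start a unique 100-mer was 0.115%, and it was under 10% in 201 of them, although the authors removed reads that aligned more than once.

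The most significant of these were on 3L. An intergenic region at chr3L:27079219-27079566, 4518 bp from the CG40228 start site, had rank 42 in the grhB37/B37 list and 65 in the grhB37/+ list at 11-12 h. The regions at 24.61, 26.94 and 26.88 Mb, whose sequences are printed above, had ranks of 63, 64 and 74 in the grhB37/B37 list, against 153, 251 and 359 in the grhB37/+ list. The shared run lay in 12 pericentric peaks of each 11-12 h list, all among its 5000 strongest. In the early lists it lay in 0 to 3, and the region at 27.01 Mb held the best of them, with rank 13 in the grhM- list and 34 in the grhM+ list at stage 5. In the grhM-Z- and grhM+Z+ lists of that stage the same region had ranks of 29244 and 15301, so early lists of different experiments differed widely at this repeat.

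Loss of Grh moved the density of pericentric peaks in no common direction. The ratio in the mutant list over that in its sibling control was below 1 in 3 of 6 pairs, and the mean difference of the log2 ratios was 0.09 (exact sign-flip p = 0.656 over 6 pairs, which can reach 0.0312). Over the 5 early pairs it was -0.04 (exact sign-flip p = 0.75), so its sign rested on the 11-12 h pair. Single grhM-Z- embryos against grhM+Z+ embryos gave 0.13 (exact permutation within stages, p = 0.135, adjusted p = 0.166). Without the first grhM-Z- embryo of stage 5 this was 0.17 (exact permutation p = 0.04), and among the strongest 5000 of an embryo it was -0.08 (exact permutation p = 0.48).

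Strong peaks without a counterpart in the sibling list were few in early embryos. At stage 5 these were 2 of 155 pericentric peaks in grhM- embryos (background 1.6%) and 16 of 266 in grhM+ embryos (background 1.24%), and 1 of 124 in grhM-Z- embryos (background 0.36%) and 1 of 125 in grhM+Z+ embryos (background 0.14%). At stage 6 they were 0 of 91 in grhM- (background 0.14%) and 2 of 106 in grhM+ (background 0.06%), 0 of 107 in grhB37/B37 and 0 of 110 in grhB37/+ (background 0% in both), and 0 of 91 in grhM-Z- (background 0.06%) and 1 of 102 in grhM+Z+ (background 0.14%). At 11-12 h, 143 of 475 pericentric peaks of the grhB37/B37 list had none (background 10.5%), against 35 of 203 in the grhB37/+ list (background 18.4%).

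Peaks on the Y chromosome differed between the same lists. They took 341 of the strongest 5000 in the grhB37/B37 list and 100 in the grhB37/+ list at 11-12 h, and 14 in the grhM- list and 65 in the grhM+ list at stage 5, the lists whose pericentric counts also differed. In the other 8 lists they took 1 to 17. Their part in the pericentric counts was not tested, and with 1 list per group these pairs have no replicate check.

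Sequence strings of known regulators were scarcer under pericentric peaks, with 1 exception. Within 50 bp of the summit, on either strand, CAGGTAG (Zld) was present in 0.341% to 1.78% of pericentric peaks, against 0.50% to 4.39% of other peaks (mean difference -1.28 points, exact sign-flip p = 0.000488, adjusted p = 0.00156). GAGAGAG, read by GAGA factor, was in 1.68% to 3.16% against 3.76% to 7.39% (-2.74 points, same p). The Grh strings AACCGGTT and AACTGGTT were in 0.177% to 0.654% against 0.572% to 1.34% (-0.43 points, same p). The CAGGTAG share was 0.633% to 1.02% of pericentric peaks at stage 6 and 1.20% to 1.78% at stage 5, against 1.85% to 2.15% and 2.64% to 4.39% in the rest at these stages. Among start-site peaks alone the Grh strings did not differ by the test (-0.08 points, exact sign-flip p = 0.838). Among distal peaks alone the differences were -1.41 points for CAGGTAG, -1.92 for GAGAGAG and -0.31 for the Grh strings. For the Grh strings the distal peaks of the grhM- list at stage 5 went the other way, 0.60% against 0.43%. How often these strings occur in the window sequence itself is not given here.

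The exception was TATCGATA, the DNA replication-related element (DRE) bound by DREF at housekeeping promoters. Over all peaks the difference was -0.16 points (exact sign-flip p = 0.189), but distal peaks differed the other way. Among distal peaks of the early lists 0.960% to 1.69% of pericentric peaks held it, against 0.188% to 0.372% of the rest (mean difference over 12 lists 0.90 points, exact sign-flip p = 0.000488). The string itself was also more frequent in the windows, 41.4 per Mb against 23.7 per Mb. Some of these sites shared a longer string. In 17.2% to 36.8% of the early distal pericentric peaks with the string it was followed by TCC on either strand, against 0% to 6.76% in the rest of the arms. Of all TATCGATA sites in the reference, within peaks or not, 23.2% in the windows and 5.09% in the rest were followed by TCC, so the shares in peaks lay around those of the sequence itself.

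Counted once per region, at the summit of its best-ranked peak in any list, this longer string lay in 14 distal regions. Single lists, counted at their own summits, had up to 17 such peaks. Of the 14 regions 5 were in all 10 early lists, and 11 were lower-case repeats in the reference. Among the 276 annotated INE-1 copies of the windows 29 carried it, and 4 of the 14 regions were in such a copy. Of the 5 shared regions 4 are shown with the string in capitals. They lie at chr3L:25703362-25703421 (intergenic), chr3L:23218965-23219024 (an INE-1 copy in an intron of the acetylcholine receptor gene nAChRalpha4), chr3R:2417496-2417555 (an intron of Myo81F) and, on the minus strand, chr3L:23176413-23176472 (an INE-1 copy in an intron of CG34031).
3L 25.70 Mb: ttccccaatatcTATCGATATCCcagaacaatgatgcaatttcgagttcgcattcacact
3L nAChRalpha4 intron: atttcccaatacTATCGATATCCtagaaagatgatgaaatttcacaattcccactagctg
3R Myo81F intron: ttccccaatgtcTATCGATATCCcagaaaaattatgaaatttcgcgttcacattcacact
3L CG34031 intron: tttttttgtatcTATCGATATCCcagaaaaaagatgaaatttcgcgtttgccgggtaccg
Beyond the 11 capital bases, the most common base of each of the following 37 positions was shared by a median of 71.4% of the 14 regions. The best ranks of the 4 regions in any list were 3905, 6176, 9123 and 9748, so 1 of them reached the strongest 5000 of a list.

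Genes of the windows were accessible at their start sites more often than genes of the rest. A peak with its summit within 1000 bp of a start site was present for 74 to 79 of the 93 protein-coding genes at stage 5, for 78 to 88 at stage 6, and for 35 in the grhB37/B37 list and 63 in the grhB37/+ list at 11-12 h. In percent this was 37.6% to 94.6%, against 29.6% to 86.0% of 8724 genes in the rest, and the pericentric share was higher in 12 of 12 lists. The mean difference, computed after seeing the data, was 13.2 points (exact sign-flip p = 0.000488, adjusted p = 0.00156), and it was 13.3 points among the strongest 5000. Pericentric genes had 1.51 annotated start sites on average and other genes 1.37. In all 10 early lists 69 of the 93 genes had such a peak, against 4300 of the 8724 genes in the rest. In all 12 lists 32 of the 93 had one, and in no list 2, CG40439 and BoYb. The shares of the rest for these last counts are not given here.

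The strongest start-site peaks belonged to genes of varied roles. CG40045 had ranks of 77, 222, 437 and 124 in the grhM-, grhM+, grhM-Z- and grhM+Z+ lists at stage 5. It had ranks of 17 to 38 (median 27.5) at stage 6, against 5654 in the grhB37/B37 list and 1861 in the grhB37/+ list at 11-12 h. Its stage 6 ranks did not overlap those of stage 5. alpha-Catenin (alpha-Cat), the actin-binding partner of beta-catenin at adherens junctions, had 679, 3371, 2058 and 596 at stage 5 and 9 to 131 (median 66) at stage 6. At 11-12 h its ranks were 5736 in the grhB37/B37 list and 3303 in the grhB37/+ list. Rank 9, in the grhM-Z- list at stage 6, was the best of any pericentric peak in that list.

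l(3)80Fg had stage 5 ranks of 208, 262, 815 and 293, stage 6 ranks of 16 to 321 (median 43), and 968 in the grhB37/B37 list and 376 in the grhB37/+ list at 11-12 h. The homeobox gene scro, active in the brain and pharynx, kept a high rank at every age. It had 274, 160, 303 and 708 at stage 5, 31 to 767 (median 172.5) at stage 6, and 245 in the grhB37/B37 list and 35 in the grhB37/+ list at 11-12 h. Its groups overlapped at all 3 ages. Myo81F, a myosin gene that extends over much of the 3R window, had 259, 244, 699 and 249 at stage 5 and 19 to 307 (median 125.5) at stage 6. At 11-12 h it had a start-site peak in the grhB37/+ list, at rank 11498, and none in the grhB37/B37 list.

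The start sites of dunk and CG12581 moved the other way. dunk, a gene of the actomyosin network of cellularization, had ranks of 666, 43, 706 and 2524 at stage 5, 8578 to 15524 at stage 6 and no start-site peak at 11-12 h. CG12581, whose summit holds the Zld string shown above, had ranks of 62, 44, 10 and 28 at stage 5, the best of the windows in the grhM-Z- list, 111 to 700 at stage 6, and 495 in the grhB37/B37 list and 1722 in the grhB37/+ list at 11-12 h. These were the only 2 of the 69 genes with a peak in all early lists whose rank percentile was weaker in every stage 6 list than in every stage 5 list, 2.9% against a background of 2.08% over 4369 genes of the 3 arms.

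In the opposite direction 21 of the 69 genes were stronger in every stage 6 list, 30.4%, against a background of 15.5%. They included cta, the G protein alpha subunit that drives apical constriction in gastrulation, with ranks of 571 to 1955 at stage 6, against 3862, 7423, 2108 and 2136 at stage 5. For lt, which encodes the vesicle-trafficking protein Vps41, they were 817 to 3990 at stage 6, against 10195, 22615, 19025 and 11854 at stage 5. At neither gene did the 2 stages overlap. Spf45 and Spf30, splicing factors, had medians of 572.5 and 310.5 at stage 6, against 6277.5 and 3728 at stage 5. Others were the helicase gene Dbp80 (median 406.5 at stage 6, against 2381.5 at stage 5), the histone methyltransferase gene Set1 (2745 against 6341.5), the cohesin gene vtd (1547 against 2742), the translation factor gene eIF4B (1587 against 4667.5), Parp1 (5658.5 against 12063.5) and AGO3 of the piRNA pathway (8578 against 13282). For vtd and AGO3 the ranks overlapped between the stages, and only the percentiles did not. By rank instead of percentile 17 of the 69 were stronger, where 12.2% of all 4369 genes were. Neighbouring genes can share a start-site peak, and the number of peaks differed between lists, from 31898 to 81188 at the early stages. The part of either in these counts was not tested.

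All 6 housekeeping genes (RpL5, RpL10, RpL15, RpL21, mRpS5 and eIF4B), found by their names, had start-site peaks in all 10 early lists and 4 of them in all 12, with a median rank of 3895 at stage 5, 1651.5 at stage 6 and 1830 at 11-12 h. The 4 neuronal genes (nrm, nAChRalpha4, Snap25 and scro) had them in all early lists too, with median ranks of 5260, 3918 and 3436 at the 3 ages. The medians of both groups cover only the peaks present, in lists of different length, so they do not show a change with age. As percentiles, nrm was 37.1 and 73.4 in the grhB37/B37 and grhB37/+ lists at 11-12 h, against 7.69 to 15.8 at stage 5. For scro the percentiles were 2.33 and 0.17, against 0.50 to 1.56. Of 21 genes known to be heterochromatic, 18 had a peak in all 10 early lists. The share to set beside each of these groups is 69 of all 93 protein-coding genes of the windows. In the rest of the arms it was 4300 of 8724. The exceptions among the 21 genes were nvd, spok and Pzl. nvd and spok encode enzymes of ecdysone synthesis, a pathway of later embryos and larvae. spok had no start-site peak in the grhM+ list at stage 5, ranks of 9342 to 15975 in the other stage 5 lists and 21765 to 34547 at stage 6. Pzl, a Piezo-like channel gene, had a single one, at rank 42853 in the grhB37/B37 list at stage 6.

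Other start sites were prominent at 11-12 h. Gfat1, which encodes the enzyme that starts hexosamine synthesis, had ranks of 17422 to 35554 at stage 5, 20265 to 24597 at stage 6, and 203 in the grhB37/B37 list and 423 in the grhB37/+ list at 11-12 h. The start site of tiptop (tio), a zinc finger gene of the teashirt family, shared with the non-coding gene lncRNA:CR33987, had ranks of 657 to 4113 at stage 5, 1259 to 2514 at stage 6, and 321 in the grhB37/B37 list and 112 in the grhB37/+ list at 11-12 h. By rank the 11-12 h lists stood apart from every early list at both genes. The 11-12 h lists held 10509 and 20540 merged peaks, against 31898 to 81188 in the early lists. As a rank percentile Gfat1 was 1.93 and 2.06 in the grhB37/B37 and grhB37/+ lists at 11-12 h, against 30.3 to 78.2 early. For tio, rank 321 of 10509 in the grhB37/B37 list fell within the stage 5 percentiles of 1.45 to 12.9.

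**Figure D5:**
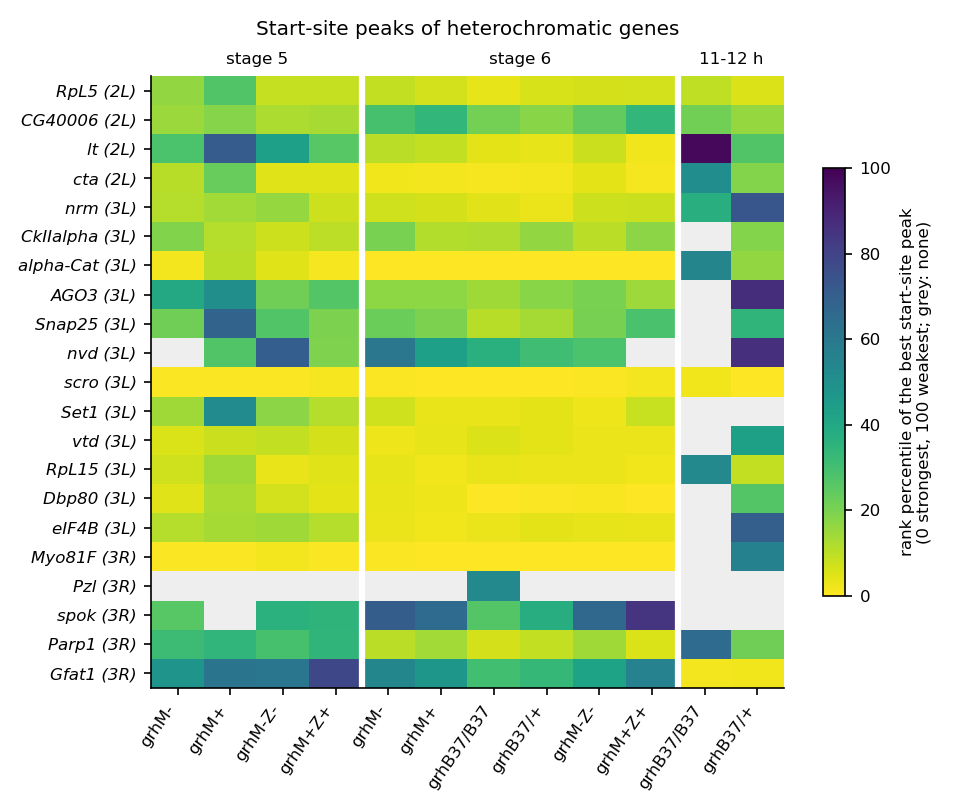
Rank percentile of the best peak within 1000 bp of a start site of 21 heterochromatic genes (rows, with chromosome arm) in the 12 lists (columns, mutant left of its control), from 0 for the strongest (yellow) to 100 for the weakest peak of a list (dark), with grey where there is no peak. lt, cta, Dbp80, Set1 and Parp1 are more yellow at stage 6, where the ranks of lt were 817 to 3990, and Gfat1 is yellow only at 11-12 h.

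Regions away from start sites could be equally strong. A region in the 3′ UTR of tio, at chr2L:22024237-22024958 and with GAGAGAG beside its summit, ranked 64, 879, 173 and 45 at stage 5, 14 to 333 (median 28.5) at stage 6, and 167 in the grhB37/B37 list and 39 in the grhB37/+ list at 11-12 h, 5352 bp from the nearest start site. It had the best mean rank, 173, of the 103 regions found in all lists. The intergenic region at chr3R:3789369-3790556, whose summit is printed above, lay 39408 bp from the CG41128 start site and ranked 345, 1725, 2016 and 542 at stage 5, 98 to 541 at stage 6, and 4290 in the grhB37/B37 list and 2155 in the grhB37/+ list at 11-12 h. Unique 50-mers made up 100% of the region in tio and 96.4% of the intergenic one.

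The 7 bp repeat at the end of 2L, printed above, had rank 7 in both 11-12 h lists and 17903 or weaker in 5 early lists. No early list had it among its strongest 5000.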

How the data were processed

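ATAC-seq peak lists (31 samples, 12 groups, 1 list each) were analysed. Per the study's methods, the authors trimmed reads with Trimmomatic 0.36, aligned them to dm6 with Bowtie2, removed multiply aligning reads and, for paired-end data, long fragments, and called peaks with MACS2. Rows of the grhM-Z- and grhM+Z+ lists are named by single embryo and overlap between embryos, so they were called per embryo and joined, and the other lists name no sample. Bedtools is also named in the submitters' processing notes. The deposited narrowPeak columns hold a score (10 times the −log10 q), a fold enrichment ratio over local background, −log10 p and −log10 q-value, and the summit offset. The largest q-value kept was 0.05. Read depth is not given in the sources used here, so list size and rank were used in its place.

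Overlapping rows were merged per list with Python 3.11.15 and ranked by −log10 q. Start sites came from Ensembl release 115 (BDGP6, the coordinates of dm6). Summit fragments and background were solved from fold enrichment and p, within 0.01 for at least 99.98% of peaks, after a test on simulated peaks. Unique 50-mers and 100-mers were counted in the reference. Lists were compared by exact sign flips or permutations, two-sided, with Benjamini-Hochberg adjustment over 16 tests. Named regions were the 10 best by mean rank in all lists, up to 5 specific to a stage or to 11-12 h, and the strongest of each arm away from start sites. Some of these regions are not reported here. Genes were named from a list of heterochromatic genes, as nearest genes of those regions, or, after their values were seen, for a non-overlapping stage change (dunk, Spf45, Spf30) or a missing peak. The members and lists were chosen with earlier results of these data known. Alternatives covered denominators, peak strength, window borders, promoter distance, pairing and left-out lists and embryos.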

Additional observations from a re-analysis of the deposited data

Results flagged for a closer look

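Among the 4 stage 5 lists the median rank percentile of pericentric peaks in the grhM+ list, 47.2, lay far from the other 3, which were 52.9 to 53.7. The gap was judged by Dixon's test at the 95% level over 5 measures in the stage 5 and stage 6 lists, 10 groups in all, of which chance flags about 1 in 20. The same list had the most pericentric peaks among its strongest 5000 of the early lists, 266, and 65 peaks on the Y chromosome among them. The cause was not tested.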

How the results depend on the processing

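The mean log2 density ratio of pericentric peaks, -0.11 as reported, changed sign per unique base: it was 0.96 per base that starts a unique 50-mer (exact sign-flip p = 0.000488), 0.68 per base that starts a unique 100-mer, and 0.0938 for peaks of at least 90% unique 50-mers per unique base (p = 0.625 by the same exact test). It passed the threshold for stronger peaks, at -1.63, -1.75 and -0.85 for the strongest 5000, 2000 and 15000, and at -0.44 and -0.86 for a −log10 q of at least 5 and 10. Moving the borders by 0.5 Mb, counting each row or taking each arm alone did not change its side of the threshold. The rank difference of 9.09 points was -9.61 by fold enrichment and 0.25 for peaks away from promoters. The start-site share difference of -33.7 points kept its sign and its call under all 8 alternatives tried. For the DRE string, -0.16 points over all peaks, the difference was 0.90 away from promoters and 0.70 at promoters (exact sign-flip p = 0.0288), and for the Grh strings, -0.43 points, it was -0.0786 at promoters.

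Between stages, pairing the 4 genotypes that have both leaves exact tests that cannot go below p = 0.125. The paired values were -0.36 for the density ratio (unpaired -0.44), 0.78 points for the start-site share (1.07, or 0.36 within 250 bp), 13.3 points for rank (10.4, or 5.36 by fold enrichment) and -1.03 for the local background (-0.78, or -0.0146 at promoters). Leaving out each list gave -0.48 to -0.35 for the density ratio and -0.88 to -0.72 for the background, and leaving out each embryo -0.60 to -0.49 for the density ratio of single embryos. The mutant against control difference, 0.09, was -0.0384 over early pairs. That of single embryos, 0.13, was -0.0834 among the strongest 5000 and 0.0752 to 0.182 on leaving out each embryo, with 0.17 passing the threshold without the first grhM-Z- embryo of stage 5.

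Pericentric peaks without a counterpart numbered 242 over the 8 stage comparisons. They were 368 when 50% of the peak had to overlap, 48 for the strongest 2000 and 62 against all peaks of the other list. The 694 of the 11-12 h comparisons were 251 for the strongest 2000, and the 201 between genotypes 333 with the stricter overlap and 17 for the strongest 2000. The causes of these shifts were not tested. Read depth is not given in the sources used here, so the detection limit of a list is unknown. Beside the genotype pairs given above, no paired analysis was possible by replicate number because the embryo codes in the lists carry none of the numbers of the labels.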
